A study of Mus musculus with 4 samples.

Results

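The Wnt signalling genes described here are the Wnt ligands, the Frizzled receptors, the co-receptors Lrp5 and Lrp6, the secreted antagonists of the Sfrp, Dkk, Frzb and Wif1 type, and 5 intracellular genes, Axin1, Axin2, Ctnnb1, Lef1 and Tcf7l2. They were taken by gene name from the array annotation, which gave 46 of the 28146 named genes and 66 of the 41174 probes. RNA levels were measured in whole brain of C57BL/6J mouse fetuses with Agilent microarrays read in 2 colours, whose probes are 60 bases long. In the food deprivation (FD) group, dams went without food overnight from before lights-off on gestation day 17. In the food restriction (FR) group, dams received 50% of the chow eaten by control dams from gestation day 10 to 17, and fetuses were delivered by caesarean section on gestation day 18, a day the labels name for FR only. Control dams ate freely. RNA of 5 fetuses was pooled per group. Each comparison had 2 arrays of the same treated and control pools, with the treated RNA labelled with Cy5 on array 1 and with Cy3 on array 2.

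Each condition was therefore 1 pool. The spread between both arrays of a comparison is technical, no test or p-value was computed, and differences between the diets and between the fetuses pooled cannot be told apart. Whether FD and FR shared a control pool is not stated, so values of both comparisons are set side by side without treating one as a repeat of the other. In whole brain, fewer cells of a type and less RNA per cell cannot be told apart.

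Wnt proteins are secreted lipid-modified ligands that bind Frizzled receptors. With Lrp5 or Lrp6, a bound receptor halts the breakdown of beta-catenin (Ctnnb1) by the Axin scaffold, and beta-catenin then acts in the nucleus with Lef1 or Tcf7l2. Frizzled receptors also signal without beta-catenin, through planar polarity proteins, and secreted antagonists either bind the ligands (Sfrp proteins, Frzb, Wif1) or the co-receptors (Dkk proteins). In the developing brain the pathway is known for patterning at the midline, for the expansion of neural progenitors and for the growth of blood vessels into neural tissue.

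No Wnt gene was 1.2-fold or more higher, or 1.2-fold or more lower, on both arrays of FD or of FR. A gene was counted as measured when a probe of it stood well above background for treated and control RNA alike on each array of the comparison, which held for 40 of the 46 genes in FD and 41 in FR, and the brightest such probe stood for the gene. At 1.2-fold, a log2 ratio of 0.26, 0 of 40 Wnt genes were higher and 0 were lower in FD, where 1.18% of the 17970 measured genes were higher and 1.00% were lower. In FR 0 of 41 were higher and 0 were lower, where 3.85% of 18569 genes were higher and 4.20% were lower. At 1.5-fold the counts were again 0, beside 0.0890% higher and 0.128% lower in FD and 0.582% higher and 0.431% lower in FR. A share of 4.20% of 41 genes is fewer than 2 genes, so a count of 0 for each direction alone is near the background. Higher or lower, 1494 of the 18569 genes passed 1.2-fold in FR. Whether 0 of 41 Wnt genes differs from that share was not tested.

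The mean log2 ratios of treated over control centred near 0. Their median was -0.01 in FD, with a range of -0.25 to 0.26, beside a median of 0.00 over all measured genes. In FR the median was 0.03, with a range of -0.39 to 0.30, again beside 0.00 over all genes. The typical size of a ratio also resembled that of other genes: the median absolute log2 ratio was 0.0753 for the Wnt genes and 0.0719 for all genes in FD, and 0.0887 and 0.0927 in FR. The plot of mean ratios shows both distributions. Signs repeated on both arrays for some genes: in FD 8 Wnt genes (20%) were above 0 and 13 (32.5%) below 0 on both arrays, where 25.5% and 23.3% of all genes were. In FR 12 (29.3%) were above 0 and 7 (17.1%) below, where 28.3% and 27.4% of all genes were.

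**Figure D1:**
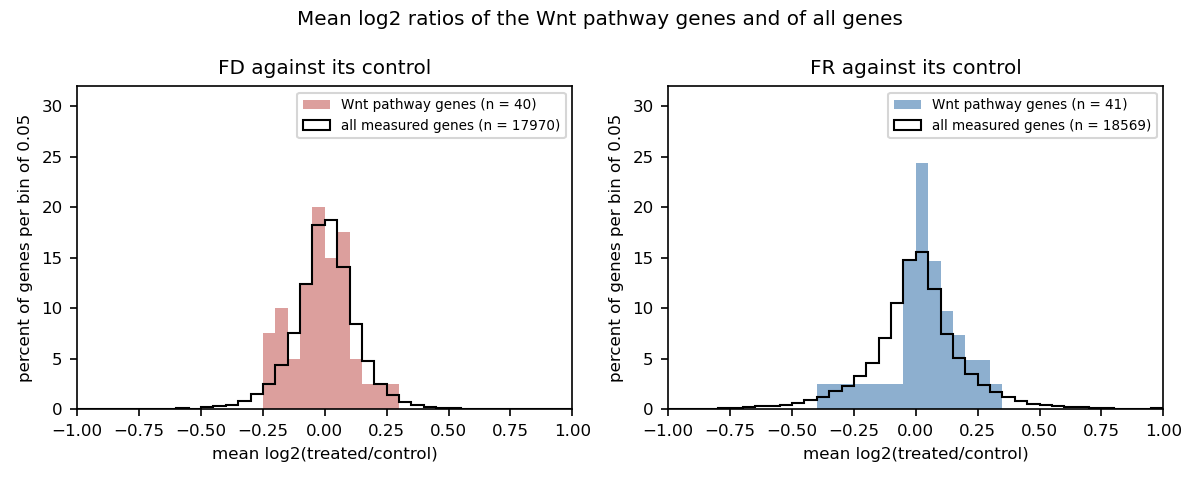
Percent of genes per bin of 0.05 (y axis) by mean log2 ratio of treated over control (x axis), for the Wnt pathway genes (filled, 40 in FD and 41 in FR) and for all measured genes (black outline, 17970 in FD and 18569 in FR). The Wnt genes lie inside the central part of both outlines, between -0.25 and 0.26 in FD and between -0.39 and 0.30 in FR.

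**Figure D2:**
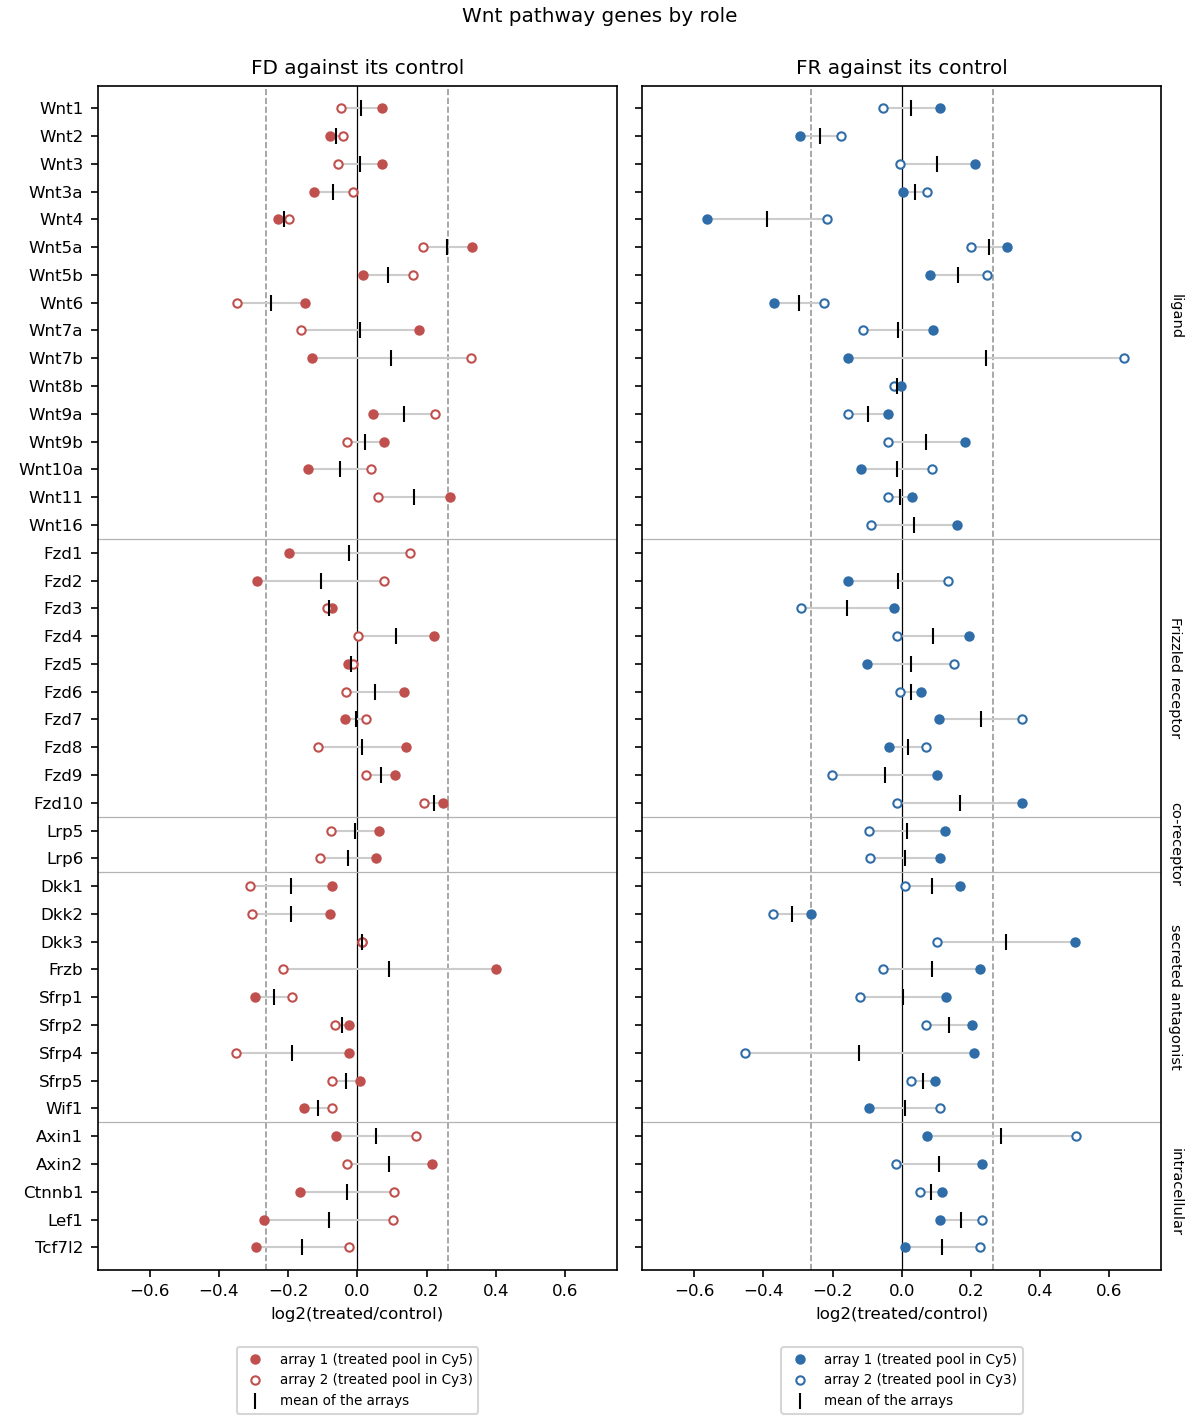
log2 ratio of treated over control (x axis) of each measured Wnt pathway gene, by role, on array 1 (filled points), on array 2 (open points) and as their mean (black ticks), for FD on the left and FR on the right. The dashed lines mark 1.2-fold, and no gene has both points outside the same line. Genes without points in a panel were not measured in that comparison.

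Among the 19 ligand genes, 14 were measured in FD and 16 in FR. The median log2 ratio of the measured ligands was 0.01 in both comparisons, with 4 above and 4 below 0 on both arrays in FD, and 3 above and 5 below in FR. Over all genes 25.5% were above and 23.3% below 0 on both arrays in FD, and 28.3% and 27.4% in FR. Wnt8a was well above background in no channel of any array. Wnt10b was so in 1 channel, and Wnt2b, a ligand of the cortical hem, only in the control channel of 2 arrays, both with the control in Cy5. Wnt16 and Wnt8b, the last known from the hem and hippocampal primordium, were measured in FR but missed the rule in FD through the control channel of array 1.

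The ligands with the lowest ratios were Wnt4 and Wnt6. The stretch of Wnt4 that the array reads lies on build mm9 at chr4:136851690-136852258 on the plus strand, a span longer than the probe, so the probe joins pieces of the transcript. Ligands of the family are related in sequence, and the best ungapped overlap of this probe with a Wnt5a probe at chr14:29331746-29335708, plus strand, matched at 25 of 51 bases. Both are shown to let the letters of related ligands be compared, with matching bases in capitals.
Wnt4: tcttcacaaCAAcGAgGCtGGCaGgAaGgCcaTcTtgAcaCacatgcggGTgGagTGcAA
Wnt5a: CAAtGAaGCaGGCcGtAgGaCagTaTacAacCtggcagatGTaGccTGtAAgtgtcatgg

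Wnt4, a ligand known for kidney and reproductive tract development that often signals without beta-catenin, had log2 channel signals of 8.02 and 7.96 in FD on arrays 1 and 2, against 8.24 and 8.15 in its control. In FR they were 7.81 and 8.02, against 8.38 and 8.24 in the control. Both treated values were below both control values in each comparison. The log2 ratio was -0.23 and -0.20 on the FD arrays, a mean of -0.21 ± 0.0218 (SD, n = 2 arrays) or 1.16-fold lower. It was -0.56 and -0.22 on the FR arrays, a mean of -0.39 ± 0.245 (SD, n = 2 arrays) or 1.31-fold lower, the lowest mean of any Wnt gene in FR, and 3.05% of the measured genes had a lower one. The FR value was large on array 1 and did not reach 1.2-fold on array 2.

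Wnt6, a ligand known from surface ectoderm and epithelia, was read by 2 probes that lie close together at the same locus, at chr1:74831361-74831426 and chr1:74831461-74831520 on the plus strand of mm9. They are shown by their first 30 of 60 bases because they do not overlap and so read the gene separately.
Wnt6, brighter probe: attcccctgaaaggccctttgctagttctg
Wnt6, other probe: ttcctcagaattactgggatggatgggtga

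On the brighter Wnt6 probe the log2 signals were 8.06 and 7.99 in FD, against 8.21 and 8.34 in its control, and 8.05 and 8.16 in FR, against 8.42 and 8.38 in its control. Every treated value was below every control value of its comparison. The log2 ratios were -0.15 and -0.35 in FD (mean -0.25) and -0.37 and -0.23 in FR (mean -0.30), or 1.19-fold and 1.23-fold lower. The other probe gave -0.24 and -0.45 in FD and -0.47 and -0.58 in FR. Its FR values passed 1.2-fold on both arrays, one of 2 cases among the 55 measured Wnt probes in FR, named after its values were seen. Single probes passed this size in FR in 3.80% (higher) and 3.83% (lower) of 25987 cases. In FD 0 of 55 Wnt probes passed, beside 1.08% (higher) and 1.02% (lower) of 25779 probes.

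Wnt5a, the best known ligand of the beta-catenin-independent branch and a hem ligand, lay on the other side of 0. Its brightest probe, at chr14:29340427-29340486 on the plus strand, had log2 signals of 9.14 and 9.14 in FD, against 8.81 and 8.95 in its control, and 9.20 and 9.13 in FR, against 8.90 and 8.93 in its control. Both treated values were above both control values in each comparison. The ratios were 0.33 and 0.19 in FD (mean 0.26, the highest mean of any Wnt gene there) and 0.31 and 0.20 in FR (mean 0.25, or 1.19-fold higher). Array 2 did not reach 1.2-fold in either comparison. The Wnt5a probe printed above gave -0.02 and 0.08 in FD and 0.05 and -0.01 in FR, where it was not well above background throughout. The 2 probes of Wnt5a thus disagreed in size.

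**Figure D3:**
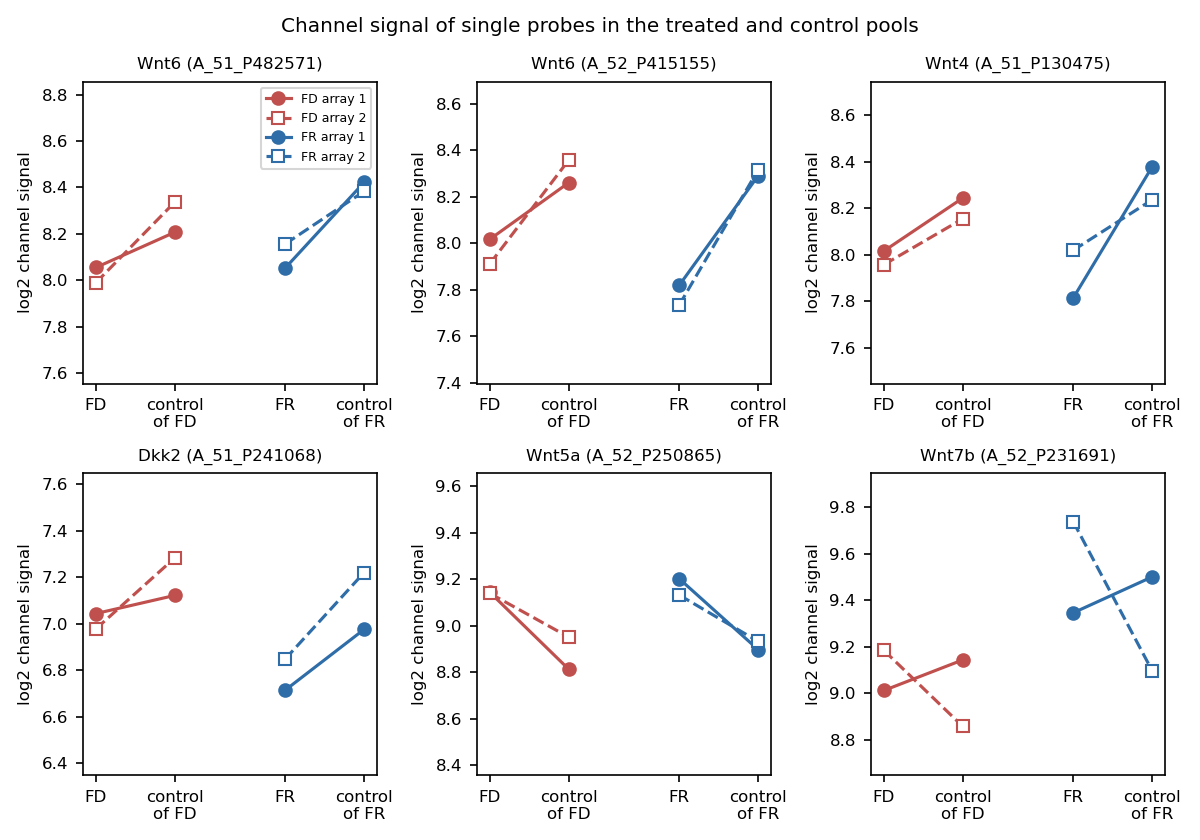
log2 channel signal (y axis) of single probes of Wnt6, Wnt4, Dkk2, Wnt5a and Wnt7b in each treated pool and, to its right, in its control pool, with a line for each array (solid for array 1, dashed for array 2). Every panel spans the same range of log2 units. Treated values of both Wnt6 probes and of Wnt4 and Dkk2 lie below the control value of their array, those of Wnt5a lie above it, and the lines of Wnt7b cross.

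The related ligand Wnt5b had ratios of 0.02 and 0.16 in FD and 0.08 and 0.25 in FR. Wnt2, a ligand known from lung, heart and midbrain development, had -0.08 and -0.04 in FD and -0.29 and -0.18 in FR. Wnt11, a ligand of the beta-catenin-independent branch, had 0.27 and 0.06 in FD and 0.03 and -0.04 in FR. These values stayed close to 0 on at least 1 array of each comparison, apart from those of Wnt2 in FR.

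Wnt7a and Wnt7b, the ligands of neural progenitors that drive vessel growth into the brain, gave different signs on both arrays. Wnt7b had -0.13 and 0.33 in FD and -0.15 and 0.64 in FR. Its FR value on array 2 was the furthest from 0 of any Wnt gene on any array, and the same gene was below 0 on array 1, where the dyes were exchanged. The mean of 0.24 ± 0.563 (SD, n = 2 arrays) in FR is therefore smaller than its spread, and it was -0.01 with the background correction fitted on all spots, the bright patch on FR array 2 included. Wnt7a had 0.18 and -0.16 in FD and 0.09 and -0.11 in FR. Wnt1, the ligand of the boundary between midbrain and hindbrain, had 0.07 and -0.05 in FD and 0.11 and -0.05 in FR. In FR, where they were measured, Wnt8b had 0.00 and -0.02 and Wnt16 had 0.16 and -0.09.

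The plot of one array against the other shows how little both arrays shared at this size of ratio. Over all measured genes, Pearson's r between the log2 ratios of arrays 1 and 2 was 0.132 in FD and 0.409 in FR, as a description across genes, which are not independent. Over the Wnt genes alone r was 0.0519 in FD and 0.140 in FR. The difference array 1 minus array 2 had the same sign in FD and FR for 34 of 39 Wnt genes (87.2%), beside 71.9% of 16768 genes. Both comparisons had the same dye orientation, and the part of the dyes in these differences was not tested. The halved difference between the arrays had a robust SD (from the median absolute deviation) of 0.113 in FD and 0.116 in FR over all genes. For the Wnt genes this robust SD was 0.115 in FD and 0.122 in FR. The plain SD was 0.114 in FD and 0.133 in FR for the Wnt genes, and 0.127 in FD and 0.131 in FR over all genes. The SD of the mean ratios of the Wnt genes was of similar size, 0.120 in FD and 0.154 in FR. Agreement of spots on a single array was of similar size: Ctnnb1, read by 5 to 9 usable spots of 1 probe per array, varied between spots with an SD of 0.0735 to 0.115, and Wnt1, read by 9 or 10, with an SD of 0.0607 to 0.149.

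**Figure D4:**
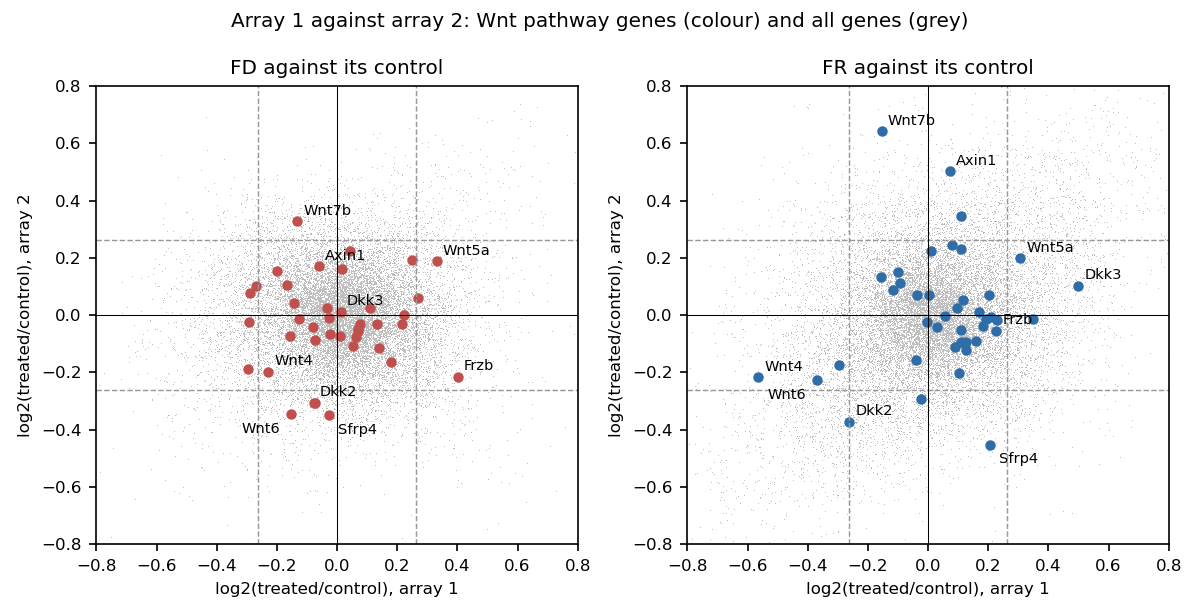
log2 ratio of treated over control on array 1 (x axis, treated pool in Cy5) and on array 2 (y axis, treated pool in Cy3) for the Wnt pathway genes (coloured points) and all measured genes (grey), in FD on the left and FR on the right. The dashed lines mark 1.2-fold, and no coloured point lies in a corner where both arrays pass in one direction. Wnt7b, at -0.15 and 0.64 in FR, lies far out on array 2 only.

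Some ligand genes are chromosome neighbours in the mouse RefSeq annotation (assembly GRCm38.p6). Wnt6 and Wnt10a adjoin on chromosome 1. The mean of Wnt6 was -0.25 in FD and -0.30 in FR, and that of Wnt10a was -0.05 in FD and -0.01 in FR. Wnt3a and Wnt9a adjoin on chromosome 11. Wnt9a had 0.04 and 0.23 in FD and -0.04 and -0.16 in FR, while Wnt3a had -0.13 and -0.01 in FD and 0.00 and 0.07 in FR. Wnt3, next to Wnt9b on the same chromosome, had means of 0.01 in FD and 0.10 in FR, and Wnt9b had means of 0.02 in FD and 0.07 in FR.

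All 10 Frizzled genes were measured in FD and 9 in FR, where the only Fzd1 probe was left out on array 2 by the outlier flag. The median ratio was 0.00 in FD and 0.03 in FR. In FD 3 receptors were above and 2 below 0 on both arrays, and in FR 1 was above and 1 below. The shares of all genes were those given for the ligands. Fzd10, a receptor known from dorsal neural tube, had 0.25 and 0.19 in FD (mean 0.22) and 0.35 and -0.01 in FR (mean 0.17). A dimmer Fzd10 probe gave -0.12 and -0.05 in FD and 0.07 and 0.04 in FR, so the sign in FD depended on the probe.

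Fzd7 had -0.04 and 0.02 in FD and 0.11 and 0.35 in FR, a mean of 0.23 in FR or 1.17-fold higher. That FR mean ran from 0.06, with the background correction fitted on all spots, to 0.42 with the scanner ratio. Fzd4, the receptor shared by Wnt ligands and norrin in vessels, had 0.22 and 0.00 in FD and 0.19 and -0.01 in FR. Fzd3, a receptor of axon guidance, was below 0 on both FD arrays on each of its 3 probes, with means of -0.08, -0.20 and -0.20. In FR the probe that stood for Fzd3 in FD was left out on array 1, and the probe used instead gave -0.02 and -0.29. The other probe measured in FR gave 0.01 and -0.20, with the sign differing between arrays. The receptors Fzd1, Fzd2, Fzd5, Fzd6, Fzd8 and Fzd9 had means between -0.11 (Fzd2) and 0.07 (Fzd9) in FD, and those of them measured in FR had means between -0.05 (Fzd9) and 0.03.

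Fzd2 and Fzd7 belong to one subfamily, and a probe of each reads a shared stretch, which is shown because 42 of 50 overlapping bases match (84%, in capitals). The Fzd2 probe lies at chr11:102467613-102467672 and the Fzd7 probe at chr1:59541367-59541426, both on the plus strand of mm9.
Fzd2: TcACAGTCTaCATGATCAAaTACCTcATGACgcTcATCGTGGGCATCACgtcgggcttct
Fzd7: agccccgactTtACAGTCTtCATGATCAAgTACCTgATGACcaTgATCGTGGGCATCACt

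The Fzd2 probe gave -0.29 and 0.08 in FD and -0.16 and 0.13 in FR, and this Fzd7 probe gave 0.08 and -0.15 in FD and -0.16 and 0.15 in FR. Whether either probe also captured the RNA of the other gene was not tested. The co-receptors Lrp5 and Lrp6 were close to 0: Lrp5 had 0.06 and -0.08 in FD and 0.13 and -0.09 in FR, and Lrp6 had 0.05 and -0.11 in FD and 0.11 and -0.09 in FR. Each was above 0 on array 1 and below 0 on array 2.

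Of the 10 secreted antagonists, 9 were measured in each comparison, and Dkk4 was well above background in no channel. In FD their median log2 ratio was -0.11, with 6 of 9 below 0 on both arrays and 1 above. In FR it was 0.06, with 4 of 9 above 0 on both arrays and 1 below. Over all genes 23.3% were below and 25.5% above 0 on both arrays in FD, and 27.4% and 28.3% in FR. Whether these few genes differ from those shares was not tested. None reached 1.2-fold on both arrays.

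Sfrp1, an antagonist abundant in cortical progenitors, had log2 signals of 9.57 and 9.59 in FD, against 9.87 and 9.78 in its control. As a mean of both arrays the signal was 9.58 in FD and 9.83 in its control, and 9.59 in FR and 9.58 in its control. The ratios of Sfrp1 were -0.29 and -0.19 in FD (mean -0.24, or 1.18-fold lower), and 0.13 and -0.12 in FR (mean 0.00). A second probe of Sfrp1 gave -0.08 and -0.03 in FD and -0.03 and -0.01 in FR, so the FD value was smaller where the gene was read elsewhere. Sfrp2 had -0.02 and -0.07 in FD and 0.20 and 0.07 in FR. Sfrp4 had -0.03 and -0.35 in FD and 0.21 and -0.45 in FR, with the sign in FR differing between arrays. Sfrp5 had means of -0.03 in FD and 0.06 in FR. Frzb, known from cartilage, had 0.40 and -0.22 in FD and 0.23 and -0.05 in FR, and Wif1 had means of -0.11 in FD and 0.01 in FR.

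The Dkk genes differed among themselves. Dkk2, at chr3:131842357-131842416 on the plus strand, had log2 signals of 7.04 and 6.98 in FD, against 7.12 and 7.28 in its control, and 6.71 and 6.85 in FR, against 6.98 and 7.22 in its control. Treated values were below control values in both comparisons. Its ratios were -0.08 and -0.31 in FD (mean -0.19) and -0.26 and -0.37 in FR (mean -0.32, or 1.25-fold lower), just inside 1.2-fold on FR array 1. Dkk1, an inhibitor of Lrp5 and Lrp6 needed for head formation and itself a target of the pathway, had -0.07 and -0.31 in FD and 0.17 and 0.01 in FR. A second Dkk1 probe gave -0.15 and 0.01 in FD and -0.18 and 0.19 in FR, with the sign differing between arrays. Dkk3, a divergent member of the family, had 0.01 and 0.01 in FD and 0.50 and 0.10 in FR, a mean of 0.30 in FR that rested mainly on array 1.

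The 5 intracellular genes had a median ratio of -0.03 in FD and 0.12 in FR. In FD 1 was below 0 on both arrays and 0 were above, and in FR 4 were above and 0 below. Over all genes 23.3% were below and 25.5% above in FD, and 27.4% and 28.3% in FR. These counts take the brightest probe of each comparison, which for Ctnnb1 was not the same in FD and FR. Other probes of Lef1, Tcf7l2 and Ctnnb1, given below, include mixed signs in FR. Axin2, the feedback inhibitor most used as a readout of the pathway, had 0.21 and -0.03 in FD and 0.23 and -0.02 in FR. Its mean, 0.09 ± 0.173 in FD and 0.11 ± 0.176 in FR (SD, n = 2 arrays each), was smaller than the spread between arrays in both comparisons. Axin1, the scaffold of the destruction complex, had -0.06 and 0.17 in FD and 0.07 and 0.50 in FR (mean 0.29). Its FR mean rested mainly on array 2 and was 0.07 with the background correction fitted on all spots.

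Lef1, a nuclear partner of beta-catenin and a target of the pathway, had -0.27 and 0.10 in FD and 0.11 and 0.23 in FR. Its second measured probe gave 0.01 and -0.18 in FD and 0.11 and -0.11 in FR, with the sign differing between arrays. Tcf7l2, the partner known from thalamus, had -0.29 and -0.03 in FD and 0.01 and 0.23 in FR. A second Tcf7l2 probe gave 0.07 and -0.46 in FD and 0.24 and -0.22 in FR, again with the sign differing between arrays. Ctnnb1, beta-catenin itself, was read by 3 probes. The probe repeated across the array, at chr9:120868778-120868837 on the plus strand, gave -0.16 and 0.11 in FD and -0.19 and 0.21 in FR. The brightest probe, at chr9:120869274-120869333, was left out on the FD arrays by the outlier flag and gave 0.12 and 0.05 in FR. The third probe is shown by its first 30 of 60 bases because it was the other case that passed 1.2-fold on both arrays, again named after its values were seen.
Ctnnb1, probe at chr9:120865275-120865334, plus strand, mm9: aagggacatggagtgtaatgtactgttgtg

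This probe gave 0.24 and -0.12 in FD and 0.51 and 0.27 in FR, a mean of 0.39 in FR beside 0.08 and 0.01 from both other probes of the gene. Where a gene had several measured probes, their mean ratios had one sign in 9 of 14 genes in FD and in 11 of 13 in FR. No such share was computed over all genes. The FR count includes probes with a mean of 0.00 (Lef1, Fzd8) or 0.01 (Dkk1, Tcf7l2) whose arrays differed in sign, so it overstates the agreement. The genes with opposite signs were Ctnnb1, Fzd10, Fzd2, Fzd8 and Wnt5b in FD, and Fzd7 and Sfrp1 in FR.

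Ratios of FD and FR were also subtracted, array by array with equal dye orientation, for the 39 Wnt genes read by a common probe. The difference FD minus FR had a median of -0.04 and ran from -0.29 for Dkk3 to 0.23 for Wnt9a. For Dkk3 the mean log2 signal was 8.91 in FD and 8.90 in its control, and 8.95 in FR and 8.65 in its control. Such a difference also takes in the control signals, and their part in it was not tested. At 1.2-fold in both differences 0 of 39 genes were higher and 0 lower, where 2.87% of 16768 genes were higher and 2.46% lower. The differences furthest from 0 after Dkk3 were those of Dkk1 (-0.24 and -0.32) and Tcf7l2 (-0.30 and -0.25). Lef1 followed at -0.38 and -0.13, and Sfrp1 at -0.42 and -0.07. Both FD arrays lay on one side of 0 and both FR arrays on the other in 5 of 39 genes (12.8%), Dkk1, Sfrp2, Tcf7l2, Wnt3a and Wnt9a, where 6.44% of 16768 genes had such values.

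The absence of calls in FR depended on the ratio used. The scanner software's own log ratio, which subtracts background without the added offset, gave 6 of 41 genes past 1.2-fold on both FR arrays. Higher were Dkk3, Wnt16 and Wnt5a, and lower were Dkk2, Wnt2 and Wnt4, 7.32% in each direction, where 7.57% of all genes were higher and 8.24% lower by the same measure. By that measure the mean log2 ratio in FR was -0.54 for Wnt4, -0.74 for Dkk2 and -0.82 for Wnt2. In FD the same measure gave 0 of 40 genes, beside 3.69% of all genes higher and 2.64% lower.

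Another 5 lists of pathway genes were examined. Of all genes, 1.18% were 1.2-fold higher and 1.00% lower in FD, and 3.85% and 4.20% in FR. A single call or none in a list of this size is near those shares. Of 15 measured genes of ligand secretion and agonists in FD and 16 in FR, 0 passed 1.2-fold in FD, and in FR Reck was higher and Ndp lower. Reck, a membrane protein that relays Wnt7 signals in brain vessels with Gpr124, had 0.47 and 0.39 in FR and 0.39 and -0.03 in FD. Gpr124, named for its place beside Reck, had -0.20 and 0.45 in FR and -0.23 and 0.26 in FD. Ndp, which encodes norrin, the other ligand of Fzd4, had -0.31 and -0.29 in FR. Of the further antagonists, 13 measured in each comparison, 0 passed in FD and in FR Kremen2, a receptor for Dkk proteins, was lower at -0.29 and -0.27. Sostdc1, another antagonist of Lrp5 and Lrp6, had -0.24 and -0.42 in FR and 0.03 and -0.42 in FD.

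No gene passed 1.2-fold in either comparison among planar polarity genes (15 measured in FD, 13 in FR), among genes of the destruction complex and its nuclear partners (20 and 19) or among target genes (18 and 19). The medians of these lists lay between -0.05 and 0.04 in FD and between 0.00 and 0.09 in FR. Celsr2, a planar polarity cadherin, had 0.55 and 0.21 in FR. Gsk3b, the kinase that marks beta-catenin for breakdown, had -0.18 and -0.56 in FD. Ccnd1, a cell cycle gene often listed as a target, had -0.20 and -0.19 in FD.

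Sp5, a direct target in many tissues, had 0.30 and 0.18 in FD and 0.39 and 0.14 in FR. Its promoter is shown with those of Wnt5b and Wnt11, the Wnt genes whose RefSeq promoters (assembly GRCm38.p6, from 250 bases before to 50 after the start) hold the Lef1 and Tcf core motif CTTTGAT on either strand, in capitals. The motif was found in 2 of the 39 promoters listed for 31 of the Wnt genes (5.13%) and in 3.73% of all 32851 promoters. The other core form, CTTTGAA, was found in 1 of the 39 (2.56%, Dkk1) and in 5.14% of all promoters. The windows lie at chr2:70474799-70474845 on the plus strand (Sp5), at chr6:119449431-119449477 on the minus strand (Wnt5b) and at chr7:98835041-98835087 on the plus strand (Wnt11, with the motif on the opposite strand).
Sp5: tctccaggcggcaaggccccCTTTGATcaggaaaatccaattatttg
Wnt5b: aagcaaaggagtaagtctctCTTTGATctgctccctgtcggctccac
Wnt11: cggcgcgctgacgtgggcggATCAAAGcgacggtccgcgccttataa
The match is a description of the letters and was not set against binding.

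Marker genes were examined for other cell types. The shares of all genes past 1.2-fold are those given for the pathway lists, and 0.128% of all genes were 1.5-fold lower in FD. Neuron markers were measured for 5 of 6 genes in both comparisons and none passed 1.2-fold, nor did markers of the cortical hem and roof plate (5 of 6 measured) or of endothelium (6 of 7). Skeletal muscle markers moved with the FD comparison: 7 of 8 were measured and all 7 were at least 1.5-fold lower in FD on both arrays, with a median log2 ratio of -2.13 and a summed log2 level of 10.9 and 10.9 in FD, against 13.1 and 13.0 in its control. In FR the 8 measured muscle markers had a median of 0.02. Their summed log2 level, which there includes Ckm, was 11.3 and 11.3 in FR, against 11.4 and 11.3 in its control. The control of FD thus had the highest summed muscle level of the pools, and the reason was not tested. Of 6 measured cartilage and bone markers, Ibsp, Spp1 and Bglap were lower in FD (median -0.27), and Col2a1 and Ibsp were higher in FR (median 0.19). Of 6 measured markers of meninges and fibroblasts, Col1a1 (-0.90 and -0.75) and Lum (-0.30 and -0.39) were lower in FD (median -0.04), and Col1a1 (0.38 and 0.63) was higher in FR (median -0.01). Of 5 measured choroid plexus markers, 0 passed in FD (median 0.02) and Clic6 was higher in FR at 0.36 and 0.44 (median 0.06). The part of muscle, cartilage, bone, meningeal or choroid plexus RNA in the ratios of Frzb, the Dkk genes and the Sfrp genes was not tested.

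In FR, Olig1, Gpr17 and Cnp were at least 1.2-fold lower on both arrays among 7 markers of the oligodendrocyte lineage (median -0.23), while Sox10 (0.14 and -0.11) and Pdgfra (0.12 and -0.15) had mixed signs. Aqp4 and S100b were lower among 6 astrocyte markers (median -0.28), while Slc1a3 (0.24 and 0.23) and Aldh1l1 (0.12 and 0.08) were above 0 on both arrays. Of 5 measured progenitor markers Hes5 (-0.55 and -0.33) was lower (median -0.06). Pax6 (0.21 and 0.06) was above 0 on both FR arrays, and Nes, Eomes and Fabp7 had mixed signs. In FD 0 of 4 measured progenitor markers passed 1.2-fold (median -0.16). There Nes (-0.27 and -0.22), Sox2 (-0.16 and -0.05) and Eomes (-0.11 and -0.34) were below 0 on both arrays, while Pax6 (0.04 and -0.09) had mixed signs. The part of these cells in the Wnt gene values was not tested. Signal was well above background on the treated channel for 73.5% to 84.2% of 43379 spots per array, and on the control channel for 71.4% to 85.3%, with the higher share in Cy5 on every array.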

How the data were processed

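Per the file headers, Agilent Feature Extraction 9.5.3.1 gave the deposited mean intensity per spot and channel, with a median background intensity around the spot. Its deposited log10 ratio of Cy5 over Cy3 was background-subtracted and dye-normalised by the scanner software, per the file headers, and other deposited values are flags of 0 or 1 per spot. The authors' deposited value table equals the scanner ratio as log2 treated over control on bright spots (differences up to 5.48e-06, column medians -0.03, 0.03, -0.03 and 0.01); how its dim spots were made is unknown.

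Intensities were corrected with normexp (offset 50), which shrinks the ratios of dim spots, and then normalised by loess, array by array (limma 3.58.1, R 4.3.3). Control spots, those flagged as outliers and those whose background exceeded the array's median background more than 2 times (3 on FD array 1, 44 on FR array 2 and 0 on both others) were left out, the last rule being taken from earlier work on these data. Spots of a probe were averaged and swapped arrays turned, so a positive log2 ratio means higher in FD or FR. Channel signals are log2 values after loess and Aquantile. The procedure was tested on simulated data. With 1 pool per condition, no test was run. A gene was called past 1.2-fold or 1.5-fold only if both arrays passed.

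Coordinates are those of the array files (mm9). Promoters are RefSeq's (GRCm38.p6). The Wnt genes and the lists were chosen with earlier results of these data known. Full values were given for genes past 1.2-fold, the 10 largest absolute means per comparison, the 6 largest differences FD minus FR and 6 standing genes (Axin2, Lef1, Ctnnb1, Wnt7a, Wnt7b, Fzd4), and for up to 4 genes per further list. Other members are given by their values or range.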

Additional observations from a re-analysis of the deposited data

Results flagged for a closer look

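Both FD arrays lay on one side of 0 and both FR arrays on the other for 5 of the 39 Wnt genes read by a common probe (12.8%), beside 6.44% of 16768 genes. Whether the comparisons differ was not tested for any of them. The mean difference FD minus FR, on the log2 scale, was -0.28 for Dkk1, -0.18 for Sfrp2, -0.28 for Tcf7l2, -0.11 for Wnt3a and 0.23 for Wnt9a. In each of these genes at least 1 of the 4 ratios was within 0.1 of 0. Second measured probes did not have the pattern: Dkk1 gave -0.15 and 0.01 in FD and -0.18 and 0.19 in FR, and Tcf7l2 gave 0.07 and -0.46 in FD and 0.24 and -0.22 in FR.

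In the further pathway lists the same pattern held for 11 of 66 genes read by a common probe (16.7%), beside the 6.44% of all genes. Among the 30 of them named for the size of their ratios it held for 6. The difference FD minus FR was -0.55 for Gsk3b (-0.18 and -0.56 in FD, 0.21 and 0.15 in FR) and -0.46 for Csnk1e, kinases of the destruction complex. It was -0.58 for Vangl2 and 0.37 for Prickle2, planar polarity genes. Vangl2 had -0.32 and -0.25 in FD and 0.55 and 0.04 in FR on the common probe, whereas its brightest FD probe gave -0.41 and 0.14. The difference was -0.40 for Tcf7l1, a repressing partner of beta-catenin, and 0.22 for Tnfrsf19, a target gene.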

How the results depend on the processing

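No paired analysis was possible because each condition was 1 pool and no result comes from a test. The count of Wnt genes past 1.5-fold was 0 in both comparisons under the 8 alternative settings other than the use of a single array. Past 1.2-fold the FD count was 0 under the same settings. The FR count was 6 with the scanner log ratio and 6 with the authors' value table, 1 with median centring in place of loess (Dkk2) and 1 with the mean of all measured probes (Wnt6). With 1 array alone, the requirement was met by 5 to 7 genes in FD and by 6 to 6 in FR, and at 1.5-fold by 0 to 1 in FR (Wnt7b on array 2). Of the 17970 measured genes in FD, 2128 passed 1.2-fold on array 2 alone and 2901 on array 1 alone, so the FD counts of Wnt genes are near the background. No share of all genes is given here for the FR counts on 1 array or with the mean of all measured probes. Those FR counts are therefore not read as a result about the Wnt genes. The median of the Wnt genes in FD was 0.0187 with median centring (0.0361 over all genes), -0.00659 with probes above background in at least 1 channel and -0.00810 on common probes. It lay between -0.0308 and -0.0244 on single arrays in FD, and between -0.0126 and 0.0947 in FR. The cause was not tested. The mean ratios of Wnt4, Wnt6, Wnt5a, Wnt2, Dkk2 and Dkk3 kept their signs in 8 of 8 settings in both comparisons. FR values ran from -0.74 to -0.14 for Dkk2, -0.82 to -0.15 for Wnt2 and -0.54 to -0.29 for Wnt4. The trait was not particular to these genes. Axin1, Axin2, Dkk1, Fzd10, Fzd4, Lef1, Tcf7l2 and Wnt9a also kept their signs in 8 of 8 settings in both comparisons, although the arrays of Axin2 differed in sign. Of the 21 genes with full values, 19 to 21 kept their sign in FD under each of the 8 settings, and 17 to 21 in FR. On array 2 alone 16 of 21 kept their sign in FD and 17 in FR, and on array 1 alone 19 and 17. Over all genes, the number past 1.2-fold was 392 in FD (91 with median centring, 1137 with the scanner ratio) and 1494 in FR (263 and 2937, and 227 with normexp fitted on all spots). Past 1.5-fold it was 39 in FD (21 and 141) and 188 in FR (38 and 606, and 13). Signals near background and 1 pool per condition limit what can be read from ratios of this size.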
